A study of Mus musculus with 26 samples.

Results

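Early treatment by adoptive T cell transfer was compared with no treatment in HCmel3 mouse melanomas, using 8 tumours taken early during treatment (EDT) and 8 non-treated tumours (NT). The samples were chosen by their titles, and they are 16 of the 26 arrays of the series. HCmel3 is a transplantable melanoma line that came from a mouse model with Hgf overexpression and a mutant Cdk4, and the tumours grew in the skin of C57BL6 mice, were excised and were frozen in liquid nitrogen. NT mice received no part of the treatment, as far as the labels say. EDT tumours were taken out on days 12 to 20, counted from the start of a treatment made of 1 dose of cyclophosphamide, intravenous CD8+ T cells with the transgenic pmel-1 receptor, an adenovirus vaccine that expresses gp100, and CpG with polyI:C. The pmel-1 receptor recognises gp100, a melanosome protein encoded by Pmel that the tumour cells make themselves. The labels do not give the day of each tumour or the age of the mice, and the effects of the parts of the treatment cannot be told apart.

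The arrays were Illumina MouseWG-6 v2.0 bead arrays, each loaded with labelled RNA made from 100 ng of total RNA. They lay on 5 slides: NT replicates 1 to 3 on slide 1, EDT replicates 1 to 3 on slide 2, EDT replicates 4 to 6 on slide 3, NT replicates 4 and 5 on slide 4, and EDT replicates 7 and 8 with NT replicates 6 to 8 on slide 5. Slide 5 was the only slide with both groups. Whether each tumour came from its own mouse is not in the labels, and a p-value here speaks of the spread among tumours alone, part of which can be technical. NT arrays detected 14064 to 16312 of 45260 probes and EDT arrays 15008 to 16830. Values below are normalized log2 signals, on which a difference of 1 is 2-fold, and a change is the EDT mean minus the NT mean, with its SE over 8 and 8 tumours. Of 9180 genes tested, a gene was called with an adjusted p under 0.05 in limma, a linear model with a shared estimate of the spread, after Benjamini-Hochberg adjustment over all of them.

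Transferred CD8+ T cells that meet their antigen release interferon gamma. It acts through GAS motifs in promoters and induces IRF1, and IRF factors bind ISRE motifs in the promoters of antigen presentation genes, GTPases against intracellular microbes and chemokines that attract further T cells. CpG and polyI:C act through receptors of innate immunity that induce interferons as well. In melanoma, pigment genes under the lineage factor MITF supply the antigens that such T cells see.

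Melanocyte markers were present in tumours of both groups. All 16 arrays detected the melanocyte genes Pmel, Tyr, Tyrp1, Dct, Mlana and Sox10, and Mitf was detected on 8 NT and 7 EDT arrays. With the brightest probe of each gene limma called 0 of these 7 markers, and 4 had an unadjusted p under 0.05; with the mean over probes Pmel (-0.80) and Tyrp1 (-0.79) were called lower, without background correction Mlana and Sox10 were, on slides 1 to 4 Tyr and Mlana were, and with the replicate number as a block Mitf was. Without EDT replicate 6 Tyr (-1.45), Mlana (-0.54), Sox10 (-0.42) and Mitf (-1.20) were called lower, as were Tyr (-1.56) and Sox10 (-0.39) without NT replicate 8, Sox10 (-0.41) without EDT replicate 5 and Mlana (-0.58) without EDT replicate 7. The summed normalized signal of the 7 markers ran from 107200 to 126800 in NT and from 51600 to 125400 in EDT, so that the groups overlapped. Of 7 fixed T cell markers 5 were tested, and 4 of them entered the test through EDT arrays alone. The summed signal of the 5 ran from 898 to 1480 in NT, of which a single probe of Cd8b1 gave 763.3 to 1304, and from 2351 to 14830 in EDT. Without Cd8b1 the sums were 96.1 to 180.2 and 991.7 to 13280. Cd3d and Cd3g, chains of the T cell receptor complex, and Cd2, a T cell adhesion receptor, were detected on 0 of 8 NT and on 8 of 8 EDT arrays. In whole tumour pieces, more cells of a type and more RNA per cell cannot be told apart.

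Expression shifted broadly between the groups. Of the 9180 genes, 1380 (15.0%) were called higher and 1457 (15.9%) lower in EDT, and 649 (7.07%) rose and 205 (2.23%) fell by 2-fold or more. The split of directions moved with the scaling: it was 1380 to 1457 with quantile normalization, 2287 to 172 with median centring of each array and 1756 to 753 with the authors' values. The median change over all genes was -0.05, 0.30 and 0.08 in these settings. The rises of 1322 of the 1380 genes were called under median centring, with the authors' values and without background correction, whereas 172 of the 1457 falls were. Of the falls of 2-fold or more, 150 of 205 were called in all 3 settings. All 8 EDT tumours lay above all 8 NT tumours for 436 genes (4.75%) and below them for 142 (1.55%).

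A gene entered the test when at least 5 of the 8 arrays of either group detected it, and 777 of the 9180 did so through EDT arrays alone and 160 through NT arrays alone. That choice itself favours a higher signal in the group that let the gene in. Counts of rises in the lists below are therefore given for members that at least 5 NT arrays detected, and members that entered through EDT alone are counted apart and support no direction. Over all 8403 genes that NT arrays so detected, 1004 (11.9%) were called higher and 1457 (17.3%) lower, 275 (3.27%) had every EDT tumour above every NT tumour, and the median change was -0.09. At most 2 members of any list entered through NT alone.

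**Figure D1:**
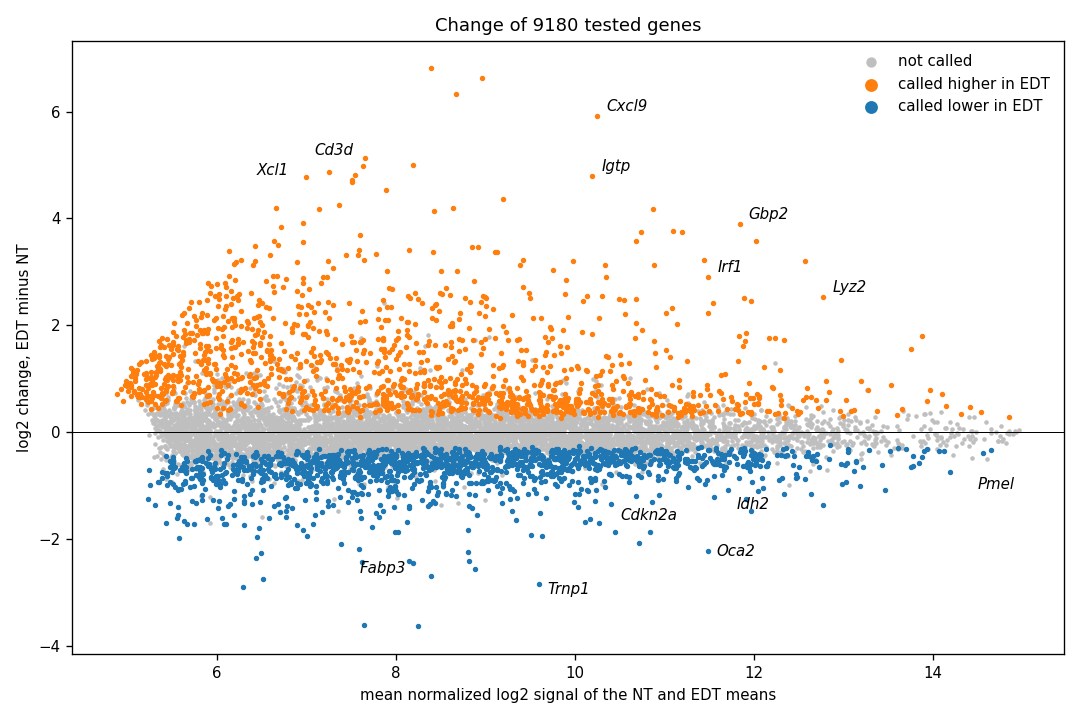
Change between EDT and NT (vertical axis, log2) against the mean normalized log2 signal (horizontal axis) for the 9180 tested genes, 1 point per gene, with genes called higher in orange and lower in blue. The rises reach 6.81 while the falls end at -3.64.

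**Figure D2:**
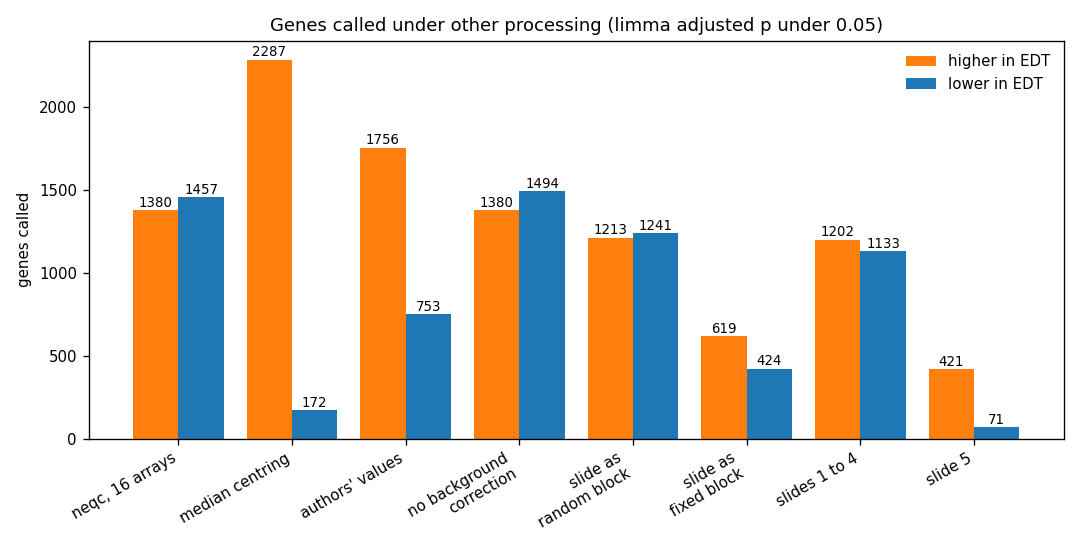
Number of genes called higher (orange) and lower (blue) in EDT under 8 ways of processing the same arrays, on a linear axis from 0. Median centring gives 2287 and 172 calls where quantile normalization gives 1380 and 1457, and slide 5 alone gives 421 and 71.

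Slide 5 served as a partial check on different tumours. Its arrays also took part in the normalization, the detection filter and the choice of probes. The filter favoured a rise, on slide 5 too, in the 777 tested genes that entered through EDT arrays alone. These genes were not set apart among the rises counted here. On slides 1 to 4, with 6 EDT and 5 NT tumours, 1202 genes (13.1%) were called higher and 1133 (12.3%) lower. The 2 EDT and 3 NT tumours of slide 5 were left out of the group comparison that gave those calls. On slide 5, 1112 of the 1202 rises (92.5%) and 1013 of the 1133 falls (89.4%) had the same sign. Over all tested genes 45.7% had a positive and 54.3% a negative change on slide 5. By the same test on slide 5 alone, where 4.59% of all genes were called higher and 0.773% lower, 375 of the 1202 rises and 40 of the 1133 falls were called. Among genes not called on slides 1 to 4, 60.2% of those with a positive and 70.6% of those with a negative change kept their sign on slide 5. For the called genes of both directions together the share with the same sign was 91.01%, and 73.82% under median centring. Without the detection filter the share was 92.77% for 1051 rises and 88.37% for 903 falls called on slides 1 to 4.

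The 12 largest rises among genes that all 16 arrays detected held GTPases, chemokines, antigen presentation genes and genes of surface proteins. Igtp, an immunity-related GTPase that guards against intracellular parasites, had a lowest, median and highest signal of 6.71, 7.91 and 9.02 in NT and of 11.61, 12.84 and 13.25 in EDT. The groups lay far apart, with a change of 4.79 ± 0.32 (limma adjusted p = 1.36e-08), and slide 5 gave 5.44. Calhm6, an interferon-induced membrane channel gene, went from 5.51, 6.25 and 7.13 in NT to 9.26, 10.59 and 11.58 in EDT, again without overlap (4.13 ± 0.31, limma adjusted p = 5.23e-08). The remaining 10 of the 12 largest were the chemokine genes Cxcl9 (5.91), Cxcl10 (4.20) and Ccl5 (3.75), the guanylate-binding protein genes Gbp3 (4.36) and Gbp2 (3.89), the leukocyte surface protein genes Ly6c1 (4.18) and Cd52 (3.75), the class II antigen presentation genes H2-Eb1 (3.76) and H2-Ab1 (3.58), and the proteasome gene Psmb9 (3.58). In each of these 12 genes the lowest EDT tumour lay above the highest NT tumour, on slide 5 too, where all 12 were called.

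Another 64 genes were detected on no NT array and on all 8 EDT arrays, and none was detected on all NT and no EDT arrays. For these only a lower bound of the fold can be given, taken from the lowest signal each NT array could detect, and it ran from 1.10-fold to 22.7-fold with a median of 3.06-fold. The highest bounds were those of Cd3d (at least 22.7-fold higher), Cd3g (at least 19.1-fold) and Gm4951, an immunity-related GTPase gene (at least 16.7-fold). Xcl1, a chemokine of activated CD8+ T cells and natural killer cells that attracts cross-presenting dendritic cells, was at least 13.5-fold higher: its signals were 4.36 to 4.93 in NT, all near background, and 8.04 to 10.82 in EDT. All 64 genes entered the test through EDT arrays alone, so their direction was favoured by the choice. Itgb7, the beta chain of a lymphocyte integrin for mucosal homing, was at least 9.83-fold higher, and Klrd1, the CD94 receptor chain of natural killer and activated CD8+ T cells, at least 8.80-fold.

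Genes of the STAT, IRF and SOCS families and their partners were fixed as a list of 30. Of the 21 that NT arrays detected 9 rose and 1 fell, with a median change of 0.36 against -0.09 for all such genes, and another 5 entered through EDT alone. Irf1 ran at 9.61, 10.13 and 10.41 (lowest, median and highest) in NT and at 12.25, 12.92 and 13.77 in EDT. No EDT tumour came near the NT range, and the change was 2.90 ± 0.22 (limma adjusted p = 5.21e-08). Nlrc5, which switches on the genes of MHC class I, rose by 3.19 ± 0.24. Ciita, which does so for class II, was at least 3.40-fold higher. It entered through EDT alone, so its bound supports no direction. Stat3, which carries interleukin-6 signals, had a change of 0.36 ± 0.18 (limma adjusted p = 0.126) with overlapping groups, and it was called higher under median centring (0.71), with the authors' values (0.46) and without NT replicate 3 (0.46).

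GTPases induced by interferon rose. Of 11 fixed guanylate-binding protein genes NT arrays detected 3, with a median change of 3.89, and of 12 fixed immunity-related GTPase genes they detected 4, with a median of 3.25. All 7 rose, and in all 7 every EDT tumour lay above every NT tumour, as in 3.27% of all genes that NT arrays detected. Another 6 members of both lists entered through EDT alone, and the rest had no probe or too few arrays that detected them. Gbp2 had signals of 9.12, 9.80 and 11.08 in NT and of 12.96, 13.89 and 14.40 in EDT, a change of 3.89 ± 0.28. Tgtp1 was detected on no NT array and was at least 8.09-fold higher in EDT, with EDT signals of 7.51, 8.83 and 9.39. Members of both families are close in sequence, and their probes may read each other's transcripts.

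Promoter sequences show where the letters of the GAS and ISRE motifs stand in these genes. The windows are the 250 bases before each annotated gene start from RefSeq (mouse build GRCm38.p6), searched on both strands for TTCNNNGAA (GAS) and for a pair of GAAA runs with any 2 letters between them (the core of ISRE). Irf1 is printed as the factor with the largest rise seen on all arrays, Igtp, Tgtp1, Gbp2 and Gbp3 as members of both GTPase families, and Calhm6 as the other large rise described above. Capitals mark the motifs, on either strand. Each line is the last 130 bases of a searched window, on the gene's own strand from 5′ to 3′, and the part not printed holds none of these motifs. Irf1 and Gbp3 have a second window without either motif, which is not printed.
Irf1 (chr11:53769884-53770013, plus strand): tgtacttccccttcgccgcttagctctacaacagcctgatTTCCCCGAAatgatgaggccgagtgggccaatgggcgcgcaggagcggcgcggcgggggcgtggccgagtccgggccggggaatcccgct
Igtp (chr11:58199426-58199555, plus strand): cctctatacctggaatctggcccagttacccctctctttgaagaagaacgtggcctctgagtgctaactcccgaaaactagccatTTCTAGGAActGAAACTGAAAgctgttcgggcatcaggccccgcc
Tgtp1 (chr11:48992247-48992376, minus strand): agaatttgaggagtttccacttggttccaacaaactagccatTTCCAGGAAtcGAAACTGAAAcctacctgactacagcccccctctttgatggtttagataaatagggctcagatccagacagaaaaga
Gbp2 (chr3:142620533-142620662, plus strand): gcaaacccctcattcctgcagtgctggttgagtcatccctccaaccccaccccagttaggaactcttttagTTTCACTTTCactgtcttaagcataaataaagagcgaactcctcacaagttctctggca
Gbp3 (chr3:142559914-142560043, plus strand): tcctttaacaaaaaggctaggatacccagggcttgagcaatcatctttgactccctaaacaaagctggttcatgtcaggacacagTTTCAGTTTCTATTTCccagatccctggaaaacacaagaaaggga
Calhm6 (chr10:34127973-34128102, minus strand): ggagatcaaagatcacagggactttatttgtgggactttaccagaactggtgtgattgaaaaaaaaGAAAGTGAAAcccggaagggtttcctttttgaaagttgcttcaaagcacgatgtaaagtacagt
Igtp and Tgtp1 hold a GAS motif followed within a few bases by an ISRE core, Irf1 holds GAS alone, and Gbp2, Gbp3 and Calhm6 hold the ISRE core alone, which in Gbp3 occurs in 2 overlapping copies. ISRE cores stood in 4 of 5 windows of tested guanylate-binding protein genes and in 5 of 6 windows of immunity-related GTPase genes, against 2.98% of all 32851 windows and 2.82% of those of tested genes. Among genes that rose by 2-fold or more, 9.51% of 652 windows held ISRE and 11.04% GAS, against 2.82% and 6.17% of the windows of tested genes. For genes that fell by 2-fold or more the shares were 1.41% and 3.76% of 213 windows. A match is a description of letters and shows no binding.

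Antiviral genes rose by smaller amounts. Of 35 fixed interferon-stimulated antiviral genes NT arrays detected 22, of which 19 rose and none fell, with a median change of 1.28, and 1 entered through EDT alone. Parp14, an ADP-ribosyltransferase of the interferon response, rose by 3.02 ± 0.27, Trim30a, a restriction factor of mice, by 2.68 ± 0.27 and Phf11d by 2.54 ± 0.27. Ifitm2, a membrane protein that blocks virus entry, had a change of -0.26 ± 0.16 from an NT median of 13.26, with overlapping groups. Of 12 sensors of nucleic acids and their adaptors that NT arrays detected, 9 rose and none fell (3 more entered through EDT alone). The tested sensors held Samhd1, which depletes nucleotides and rose by 1.98 ± 0.22, and Ifi207, which rose by 2.13 ± 0.30, while Mavs, the adaptor of RNA sensing, had -0.40 ± 0.21. Ifi207 belongs to a family of near-identical genes, and its probe may read others of them. Of the lymphocyte genes Slfn2 and Slfn1 of the Schlafen family, Slfn2 rose by 1.87. Slfn1 was at least 2.59-fold higher, but it entered through EDT alone, so this supports no direction.

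The proteasome changed in its inducible part. Of 7 tested inducible subunit and activator genes, 5 rose, with a median change of 1.15, whereas of 26 tested genes of the constitutive proteasome 5 rose and 1 fell, with a median of 0.00. Psmb8, an inducible catalytic subunit, had signals of 8.76, 9.87 and 10.44 in NT and of 12.46, 13.18 and 13.42 in EDT. The groups did not overlap (3.22 ± 0.21, limma adjusted p = 1.1e-08). Among constitutive genes Psma4 rose by 0.71 ± 0.13, without overlap, and Psmb4 had a change of 0.20 ± 0.11. The median of the inducible list was above that of every NT tumour in 8 of 8 EDT tumours, and that of the constitutive list in 0 of 8.

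**Figure D3:**
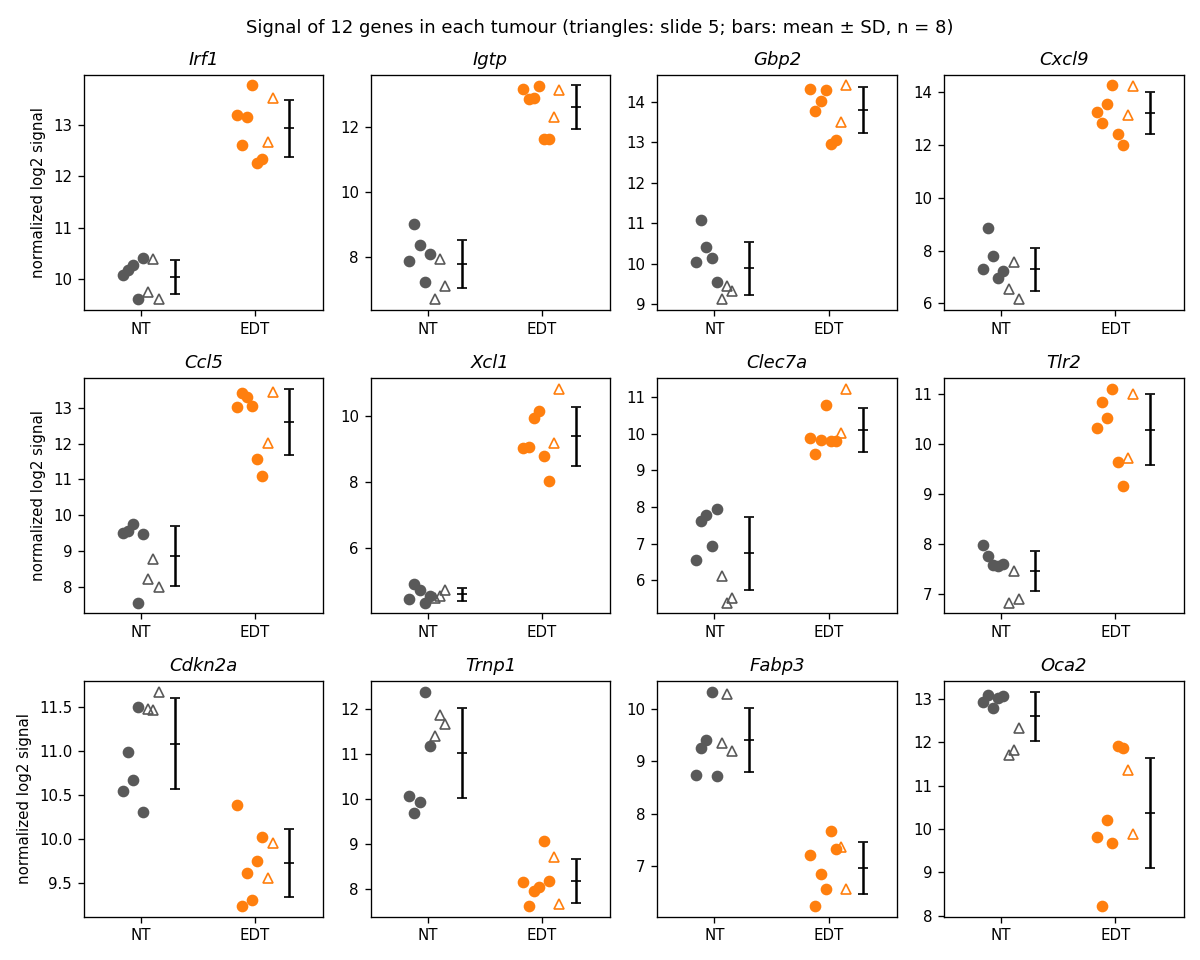
Normalized log2 signal of 12 genes in each tumour (vertical axes), for 8 NT tumours in grey and 8 EDT tumours in orange, with tumours of slide 5 as open triangles and the mean ± SD of each group (n = 8) beside the points. In 10 of the 12 genes the groups do not overlap, while in Cdkn2a and Oca2 single EDT tumours lie within the NT range.

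Chemokines rose with some of their receptors. Of 12 CC and related chemokine genes that NT arrays detected, 10 rose and 1 fell, with a median change of 1.79, and of 7 CXC chemokine genes 5 rose, with a median of 1.23. Another 3 and 2 entered through EDT alone. Cxcl9, which attracts T cells through CXCR3, had signals of 6.15, 7.25 and 8.84 in NT and of 11.98, 13.20 and 14.25 in EDT. This was the largest change among genes detected on all arrays, and slide 5 gave 6.93. Ccl5 had 7.57, 9.13 and 9.76 in NT and 11.09, 13.03 and 13.44 in EDT, Ccl4 rose by 3.12 ± 0.39, and Cxcl16, the ligand of CXCR6, by 2.85 ± 0.26. Pf4, a platelet chemokine, had a change of 0.32 ± 0.54.

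Among 5 chemokine receptor genes that NT arrays detected 3 rose and none fell, and 4 entered through EDT alone. Ccrl2, a receptor that binds chemerin, rose by 2.42 ± 0.39, Cx3cr1, the fractalkine receptor of monocytes and effector T cells, by 1.58 ± 0.37, and Cxcr3 by 1.38 ± 0.42. Not all 3 belong to the 5 that NT arrays detected, whose median change was 1.12. A rise of a member that entered through EDT alone supports no direction. For Cxcr3 the groups overlapped (4.93 to 7.05 in NT, 6.03 to 9.56 in EDT), and slide 5 gave 1.53 without a call (limma adjusted p = 0.21). Among adhesion molecules of leukocytes 4 of 8 that NT arrays detected rose, and 5 entered through EDT alone. Icam1, the ligand of leukocyte integrins, and Selplg, the ligand of P-selectin, rose by 2.50 ± 0.31 and 2.52 ± 0.28, and neither overlapped between groups, whereas Cd44 had a change of -0.36 ± 0.15, and with the mean over its probes it fell by 0.59. Cd44 was also called lower without EDT replicate 6 (-0.43) or 8 (-0.42).

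T cell signalling genes lay near background in NT. Of 25 fixed kinases, adaptors and receptors of T cell activation 15 were tested, and 13 of these entered through EDT arrays alone, so that their direction was favoured by the choice. Of the 2 that NT arrays detected, Vav1, an exchange factor of blood cells named here after its value was seen, rose by 2.02, and Fyn was not called. Sh2d2a, an adaptor induced on T cell activation, was detected on 1 of 8 NT and 8 of 8 EDT arrays, with signals of 4.47 to 5.98 in NT and 7.74 to 11.13 in EDT. Cd27, a costimulatory receptor, rose by 3.50 ± 0.39, and Ptpn22, a phosphatase that restrains the receptor, to at least 6.19-fold. Fyn, a kinase that many cell types share, changed by 0.30 ± 0.18 without a call (limma adjusted p = 0.221) but was called at 0.61 under median centring. Of 12 lymphocyte transcription factors that NT arrays detected 5 rose, and 3 entered through EDT alone. Ikzf1, which all lymphocyte lineages need, rose by 2.90 ± 0.27. Stat4, which relays interleukin-12, was at least 2.21-fold higher, but it entered through EDT alone, so this supports no direction. The CD8 chain gene Cd8b1 was detected on all arrays of both groups, at 9.58 to 10.35 in NT and 10.17 to 10.60 in EDT, with a change of 0.37 ± 0.12 (limma adjusted p = 0.031). Leaving out NT replicate 4, 7 or 8 or EDT replicate 2 or 4 ended this call, with changes of 0.31 to 0.35, whereas the mean over its probes rose by 2.77, so the size of its rise hung on the probe. Slide 5 gave 0.53 without a call (limma adjusted p = 0.362).

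Genes of myeloid cells formed a broad set of rises. Of 6 tested macrophage markers 5 rose, and their summed signal ran from 2563 to 7894 in NT and from 14170 to 30480 in EDT. The exception was Mrc1, a mannose receptor of resident and alternatively activated macrophages, with 0.39 ± 0.50. Of 14 Fc receptors, adaptors and related receptors that NT arrays detected 12 rose, with a median change of 1.83. Clec7a, a receptor for fungal glucans, had 5.39, 6.75 and 7.94 in NT and 9.45, 9.86 and 11.23 in EDT, and its change of 3.38 ± 0.37 was 4.96 on slide 5. Fcgr1, the high-affinity receptor for IgG, rose by 2.36 ± 0.23, whereas Fcgrt, which recycles IgG, had -0.19 ± 0.14.

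Of 16 genes of Toll-like receptors and their adaptors that NT arrays detected 9 rose and 1 fell, with a median of 0.83, and 5 entered through EDT alone. Tlr2, a receptor for bacterial lipoproteins, had 6.83, 7.57 and 7.98 in NT and 9.17, 10.41 and 11.10 in EDT, with no overlap (2.82 ± 0.27, limma adjusted p = 6.37e-07). Ly86, a partner of the receptor RP105, rose by 2.43 ± 0.28, and the kinase gene Irak1 had -0.05 ± 0.13. Of 6 genes of the phagocyte oxidase and of peroxide handling that NT arrays detected 4 rose (2 more entered through EDT alone), and the oxidase subunit gene Ncf4 rose by 2.06 ± 0.26. Of 13 complement genes that NT arrays detected 6 rose and 1 fell, with factor B (Cfb) at 3.31 ± 0.40 and C1qb at 1.75 ± 0.22, while C2 had -0.03 ± 0.16. Of 5 tested neutrophil markers 3 entered through EDT alone, among them Csf3r, the G-CSF receptor, which rose by 1.57 ± 0.16. Of the others S100a8, a subunit of calprotectin, was called (3.04), but not once NT replicate 7, NT replicate 8, EDT replicate 2 or EDT replicate 4 was left out (2.64 to 2.74), and its partner S100a9 had 2.41 ± 1.13 (limma adjusted p = 0.115) with ranges of 4.57 to 10.45 and 4.56 to 12.75. Without EDT replicate 6 S100a9 was called higher (3.05, limma adjusted p = 0.0321). Keratinocytes also make S100a9, and keratinocyte markers varied widely in both groups, with summed signals of 68.7 to 18930 in NT and 90.4 to 33120 in EDT. Their part in the S100a9 values was not tested.

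Of 33 lysosomal genes that NT arrays detected 6 rose (18.2%) and 6 fell (18.2%), with a median of 0.01, and 1 entered through EDT alone. Over all genes that NT arrays detected 11.9% rose and 17.3% fell. Ctsh and Ctss, cathepsins of antigen-presenting cells, rose by 2.32 ± 0.23 and 2.16 ± 0.42. Ctsw, a cathepsin of cytotoxic lymphocytes, had the largest change of the list, 4.26 ± 0.41, but not all arrays detected it. Ctsb, a cathepsin of most cells, had 0.01 ± 0.12 from an NT median of 14.55. Among enzymes that use amino acids in immune regulation 3 of 7 that NT arrays detected rose and 1 fell, with a median of 0.16, and 6 entered through EDT alone. Ass1, which serves the recycling of arginine, rose by 1.72 ± 0.29. Arg1, which splits arginine, had signals of 5.03, 7.70 and 10.36 in NT and of 7.69, 9.60 and 12.59 in EDT. Its rise of 2.22 ± 0.80 (limma adjusted p = 0.0432) rested on tumours of slides 1 to 4, since slide 5 gave -0.19. Arg1 was not called once any 1 of NT replicates 1, 2, 3, 5 and 7 or of EDT replicates 1, 2, 3, 4 and 8 was removed, with changes of 1.82 to 2.30.

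Among cell death genes the share of falls was near that of all genes. Of 16 death receptor, caspase and gasdermin genes that NT arrays detected 6 rose (37.5%) and 3 fell (18.8%), with a median of 0.16. Of all genes that NT arrays detected 11.9% rose and 17.3% fell. Another 4 members entered through EDT alone. Gsdmd, which forms pores in pyroptosis, had 6.01, 6.41 and 7.09 in NT and 7.58, 8.98 and 9.55 in EDT, a change of 2.27 ± 0.28. Casp4, the caspase that cleaves it on sensing lipopolysaccharide, rose by 2.09 ± 0.35, and the death receptor gene Fas by 2.01 ± 0.31, while Casp2 had -0.20 ± 0.11. In the BCL2 family 3 of 14 that NT arrays detected rose and 1 fell. Bcl2a1b, an inhibitor of apoptosis in leukocytes, rose by 2.55 ± 0.24, but its near-identical copies share sequence with it and cannot be told apart with certainty, and Mcl1 had 0.10 ± 0.12. In the NF-kappa-B pathway 8 of 16 that NT arrays detected rose, with the feedback inhibitor gene Nfkbie at 1.55 ± 0.24 and Rela at 0.03 ± 0.11.

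**Figure D4:**
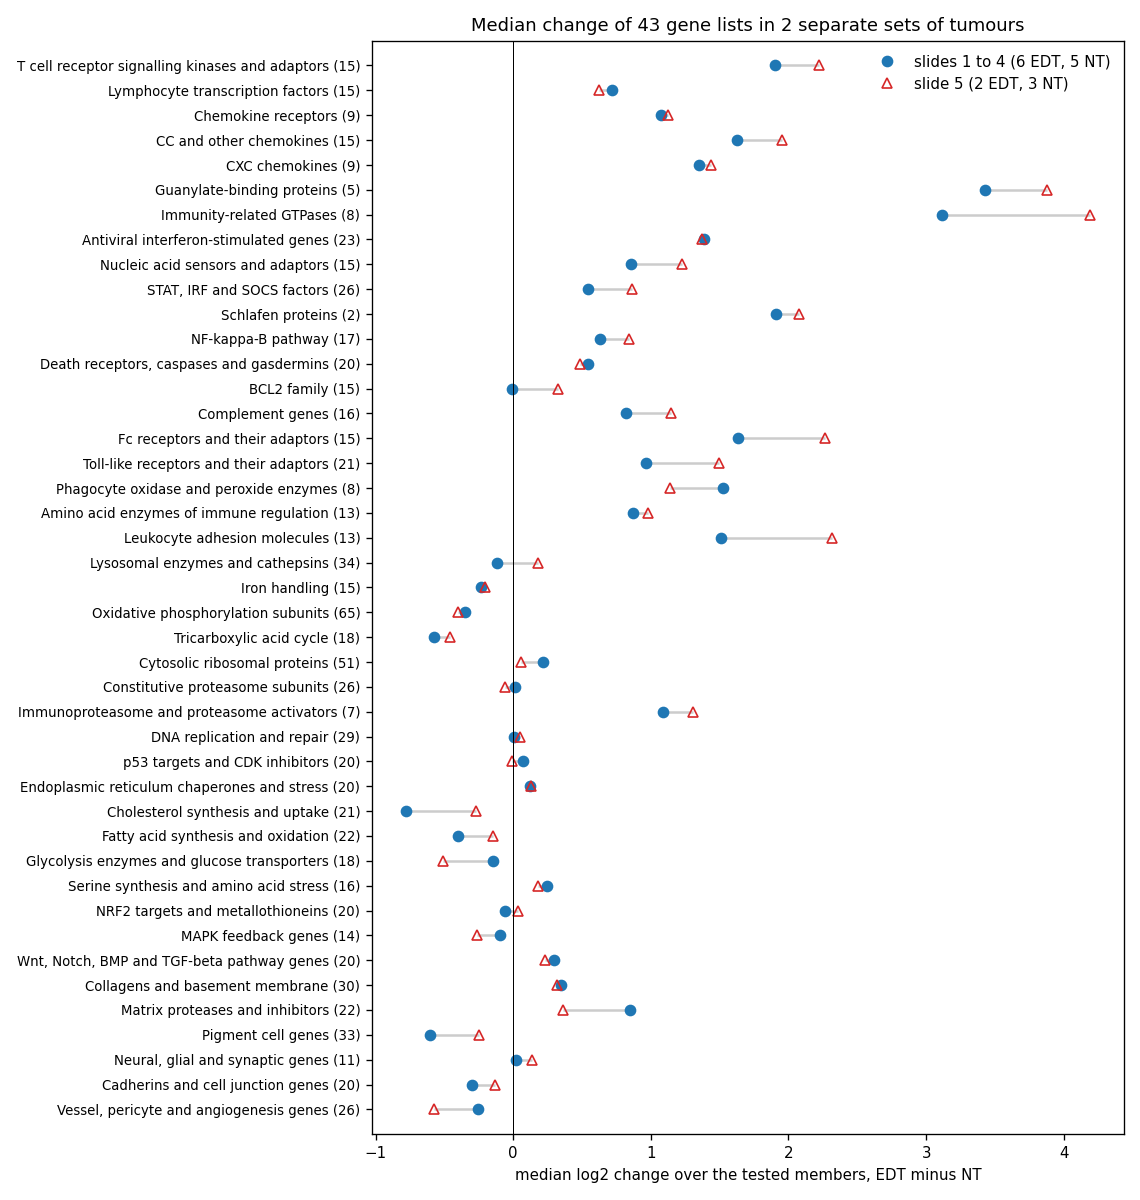
Median log2 change over the tested members of 43 gene lists (number of tested members in parentheses, with those that entered through EDT alone included), on slides 1 to 4 (filled circles, 6 EDT and 5 NT tumours) and on slide 5 (open triangles, 2 EDT and 3 NT tumours). The GTPase lists lie farthest to the right in both sets, while the pigment list lies at -0.60 on slides 1 to 4 and -0.25 on slide 5.

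The 12 largest falls among genes that all 16 arrays detected held 3 pigment genes and several genes of lipid and transport functions. Trnp1, a chromatin regulator of neural progenitors, had signals of 9.69, 11.28 and 12.38 in NT and of 7.62, 8.09 and 9.07 in EDT. Every EDT tumour lay below every NT tumour, the change was -2.84 ± 0.36 (limma adjusted p = 1.45e-05), and slide 5 gave -3.45. Fabp3, a carrier of fatty acids, had 8.72, 9.31 and 10.33 in NT and 6.23, 7.02 and 7.67 in EDT, again without overlap (-2.45 ± 0.26, limma adjusted p = 2.03e-06), and was called on slide 5 and under median centring. Acot1, which splits acyl-CoA, fell by 1.87 ± 0.21, Slc6a17, an amino acid transporter of synaptic vesicles, by 1.95 ± 0.34, and the secreted phospholipase gene Pla2g2e by 1.93 ± 0.31, each with every EDT tumour below every NT tumour. The remaining 7 of the 12 were Prss12 (-2.58), Gstp2 (-2.42), Car14 (-2.41), Nckap5l (-2.24) and the pigment genes Oca2 (-2.23), Trpm1 (-2.07) and Gpr143 (-1.88), and their groups overlapped. All 12 were called under median centring, and 5 of them were called on slide 5.

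Pigment cell genes fell in part. Of 33 tested (36 fixed), 11 fell and none rose, with a median of -0.40 (-0.35 relative to all genes), and under median centring, where 24.9% of all genes were called higher and 1.87% lower, 5 fell and 1 rose with a median of -0.04 (-0.34 relative to all genes). Oca2, a melanosome anion channel, had 11.71, 12.86 and 13.10 in NT and 8.23, 10.05 and 11.92 in EDT, so that 6 of 8 EDT tumours lay below all NT tumours. The change of -2.23 ± 0.44 (limma adjusted p = 0.00116) was -1.33 on slide 5, where it was not called. Trpm1, a channel gene of melanocytes, had 8.86, 12.11 and 12.91 in NT and 7.06, 9.48 and 11.09 in EDT, and its change was -2.07 ± 0.58 overall but -0.55 on slide 5, which holds the lowest NT tumour, replicate 6. Gpnmb, a melanosome and lysosome glycoprotein gene, had -0.02 ± 0.10, and Pmel, the antigen gene, had -0.51 ± 0.26 (limma adjusted p = 0.138) with its brightest probe.

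The promoters of Trpm1 and Fabp3 are printed because they are the largest called falls, of 12 by 2-fold or more, whose window holds the M-box letters TCATGTG, the core that MITF binds in pigment genes, which capitals mark (RefSeq, GRCm38.p6, gene strand, 5′ to 3′, any strand searched). The lines are the last 160 and 130 bases of a searched window. Trpm1 has a second window without the M-box letters, which is not printed.
Trpm1 (chr7:64153675-64153834, plus strand): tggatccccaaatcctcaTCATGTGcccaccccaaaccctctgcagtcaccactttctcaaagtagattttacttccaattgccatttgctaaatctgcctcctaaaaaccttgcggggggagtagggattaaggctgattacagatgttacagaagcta
Fabp3 (chr4:130308608-130308737, plus strand): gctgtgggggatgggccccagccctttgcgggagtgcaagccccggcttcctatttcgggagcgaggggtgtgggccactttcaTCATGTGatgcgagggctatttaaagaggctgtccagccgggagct
These letters stood in 6 of 33 windows of the tested pigment genes, in 5.63% of 213 windows of genes that fell by 2-fold or more, in 3.37% of 652 windows of genes that rose by 2-fold or more, in 1.93% of the windows of tested genes and in 3.25% of all windows.

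Many mitochondrial genes fell by small amounts with quantile normalization, and few were called with median centring. Of 65 tested subunits of oxidative phosphorylation 34 fell and 3 rose, with a median of -0.36, and of 18 tested genes of the tricarboxylic acid cycle 11 fell and none rose, with a median of -0.50, but under median centring 0 and 2 fell, with medians of -0.03 and -0.14. Relative to the median of all genes, which the scaling also moved, the lists lay at -0.31 and -0.45 with quantile normalization and at -0.33 and -0.44 with median centring. With quantile normalization, the medians of both lists lay below those of all NT tumours in 8 of 8 EDT tumours. Sdhc, a subunit of succinate dehydrogenase, had 12.23, 12.45 and 12.72 in NT and 11.53, 11.83 and 12.12 in EDT, without overlap (-0.65 ± 0.11, limma adjusted p = 0.00031), and -0.69 on slide 5, but it was not called under median centring (-0.31). Idh2, a mitochondrial isocitrate dehydrogenase, fell by 1.08 ± 0.22 and was called under median centring too, with -0.62 on slide 5.

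Calls of lipid synthesis genes moved with the scaling in the same way. Of 21 tested genes of cholesterol synthesis and uptake 10 fell and 1, which entered through EDT alone, rose, with a median of -0.57, and under median centring 1 fell and 1 rose, with a median of -0.25. Relative to all genes the 2 medians were -0.52 and -0.55. Tm7sf2, a sterol reductase, had 7.13, 8.17 and 8.46 in NT and 5.25, 5.88 and 6.85 in EDT, without overlap (-1.95 ± 0.26, limma adjusted p = 2.42e-05), and the fall was called under median centring. Nsdhl, which acts on the same route, fell by 1.17 ± 0.27, a call lost under median centring (limma adjusted p = 0.052), and Msmo1 had -0.57 ± 0.26, with a call without EDT replicate 6 (-0.71). The list's median was -0.78 on slides 1 to 4 and -0.27 on slide 5, and in single EDT tumours it ran from -1.48 in replicate 2 to -0.03 in replicate 5. Of 22 tested fatty acid genes 9 fell and 2 rose. Fabp5, the fatty acid carrier of epidermis and macrophages, rose by 1.43 ± 0.30, in contrast to Fabp3, and Acacb, a mitochondrial acetyl-CoA carboxylase, fell by 1.13 ± 0.25 (not called under median centring).

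Glycolysis held opposite movements. Of 18 tested genes 6 fell and 1 rose, and under median centring none fell. The rise was that of Hk3, the hexokinase of myeloid cells, which had signals of 6.25 to 9.12 in NT and of 9.27 to 10.66 in EDT, with no overlap, a change of 2.22 ± 0.35, or 3.22 on slide 5. Pfkm, the muscle form of phosphofructokinase, fell by 0.80 ± 0.17 without overlap (-0.43 under median centring, not called), and Tpi1 had -0.14 ± 0.10, though the mean over its probes fell by 0.43. Slc7a11, the cystine transporter, was detected on 1 of 8 NT and 8 of 8 EDT arrays. It entered through EDT alone, so its change of 2.35 ± 0.31 supports no direction. Its partner chain Slc3a2 fell by 1.27 ± 0.18, with every EDT tumour below every NT tumour. Both calls held under median centring. On slide 5 these changes were 2.57, which was called, and -0.93, which was not.

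Genes of growth and stress were called at shares mostly near or below those of all genes. Of 29 tested genes of DNA replication and repair 2 rose (6.9%) and 2 fell (6.9%), and of 20 tested endoplasmic reticulum chaperones and stress genes 1 rose (5.0%). Among genes that NT arrays detected, 3 of 19 p53 targets and CDK inhibitors rose and 3 fell, 1 of 18 NRF2 targets and metallothioneins rose and 3 fell, and 3 of 15 genes of serine synthesis and amino acid stress rose and 2 fell. Cdkn2a, the locus of p16 and p19ARF, had 10.31, 11.23 and 11.67 in NT and 9.24, 9.68 and 10.39 in EDT. In 7 of 8 EDT tumours it lay below all NT tumours, and the fall of 1.35 ± 0.22 (limma adjusted p = 0.000168) was called under median centring and on slide 5 (-1.78). Cdkn2c, another CDK inhibitor gene, fell by 0.93 ± 0.20 with quantile normalization, but not under median centring. Of 51 tested cytosolic ribosomal protein genes 9 (17.6%) rose, near the 15.0% of all tested genes, and none fell, with a median of 0.18, and Rps24 rose by 0.71 ± 0.17 (0.44, not called, with the mean over its probes), but on slide 5 the median was 0.06. Ribosomal protein genes have many pseudogene copies that probes may read.

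Matrix and vessel genes were uneven between tumours. Of 26 collagen and basement membrane genes that NT arrays detected 3 rose (11.5%), near the 11.9% of all genes that NT arrays detected. Col5a1, a fibrillar collagen, had 9.57, 10.06 and 10.52 in NT and 10.36, 11.19 and 12.40 in EDT, a change of 1.29 ± 0.25 that was not called on slide 5 (1.31). The list's median in single EDT tumours ran from -0.42 in replicate 1 to 0.70 in replicate 2. Fibroblast markers moved alongside: 2 of 5 rose, and their summed signal was 2656 to 5394 in NT and 1623 to 22240 in EDT. These markers include the collagen genes Col1a1 and Col3a1, so part of this likeness is built in. The part of fibroblasts in the matrix values was not tested. Of 19 matrix proteases and inhibitors that NT arrays detected 5 rose and 1 fell, with Mmp13, the collagenase of rodents, at 2.51 ± 0.67. Tgfbi, a matrix protein induced by TGF-beta and made by macrophages, rose by 2.49 ± 0.31 without overlap, and Axin2, a feedback target of Wnt signalling, fell by 1.11 ± 0.31, not called under median centring. Among 26 tested vessel genes 6 fell and 2 rose, and under median centring 2 fell and 2 rose. Of the 24 that NT arrays detected 25.0% fell and 8.33% rose, against 17.3% and 11.9% of all such genes. Lyve1, a receptor of lymphatic endothelium and some macrophages, rose by 1.33 ± 0.25, and Vegfb, a growth factor of vessels, fell by 1.17 ± 0.23, while limma called 0 of 4 tested endothelial markers and 1 had an unadjusted p under 0.05.

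Markers of other tissues varied within both groups. Besides keratinocyte markers, skeletal muscle markers had summed signals of 161.6 to 17780 in NT and 198.5 to 10860 in EDT. Of 11 tested markers of keratinocytes, muscle, red blood cells and adipocytes limma called 0, and 0 had an unadjusted p under 0.05. Of 5 B cell markers 1 was tested, Cd79b, with 0.36 ± 0.25, and the rest had no probe or too few arrays that detected them.

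EDT tumours differed more from each other along the main axis of variation than NT tumours did. The first principal component over the tested genes held 46.75% of the variance. NT tumours lay between -48.2 and -28.0 on it, and EDT tumours at -0.57 (replicate 6), 11.6 (replicate 5), 16.4 (replicate 7), 32.2 (replicate 1), 47.0 (replicate 8), 47.6 (replicate 3), 52.0 (replicate 4) and 64.2 (replicate 2). The 3 tumours nearest to NT lay on slides 3 and 5. For most single genes, however, the spread was no wider in EDT: the median SD was 0.36 in NT and 0.29 in EDT, and 35.9% of genes had the larger SD in EDT.

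The lists followed that order to different degrees. The median of the guanylate-binding protein genes, relative to the NT mean, ran from 2.69 to 4.43 in EDT tumours and stood at 2.69 in replicate 6 and 2.82 in replicate 5. The median of the T cell signalling genes ran from 0.90 in replicate 5 to 4.15 in replicate 2, and that of the CXC chemokines from -0.08 in replicate 6 to 3.31 in replicate 2. These medians include members that entered through EDT alone, which favours levels above NT. Such members were 13 of 15 T cell signalling genes, 2 of 9 CXC chemokine genes and 2 of 5 guanylate-binding protein genes. The median of pigment genes ran from -1.03 in replicate 2 to -0.12 in replicate 5, and NT tumours spanned -0.14 to 0.15. Leaving out EDT replicate 6 gave 1434 genes higher and 1597 lower, and leaving out replicate 2 gave 1279 and 1247.

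**Figure D5:**
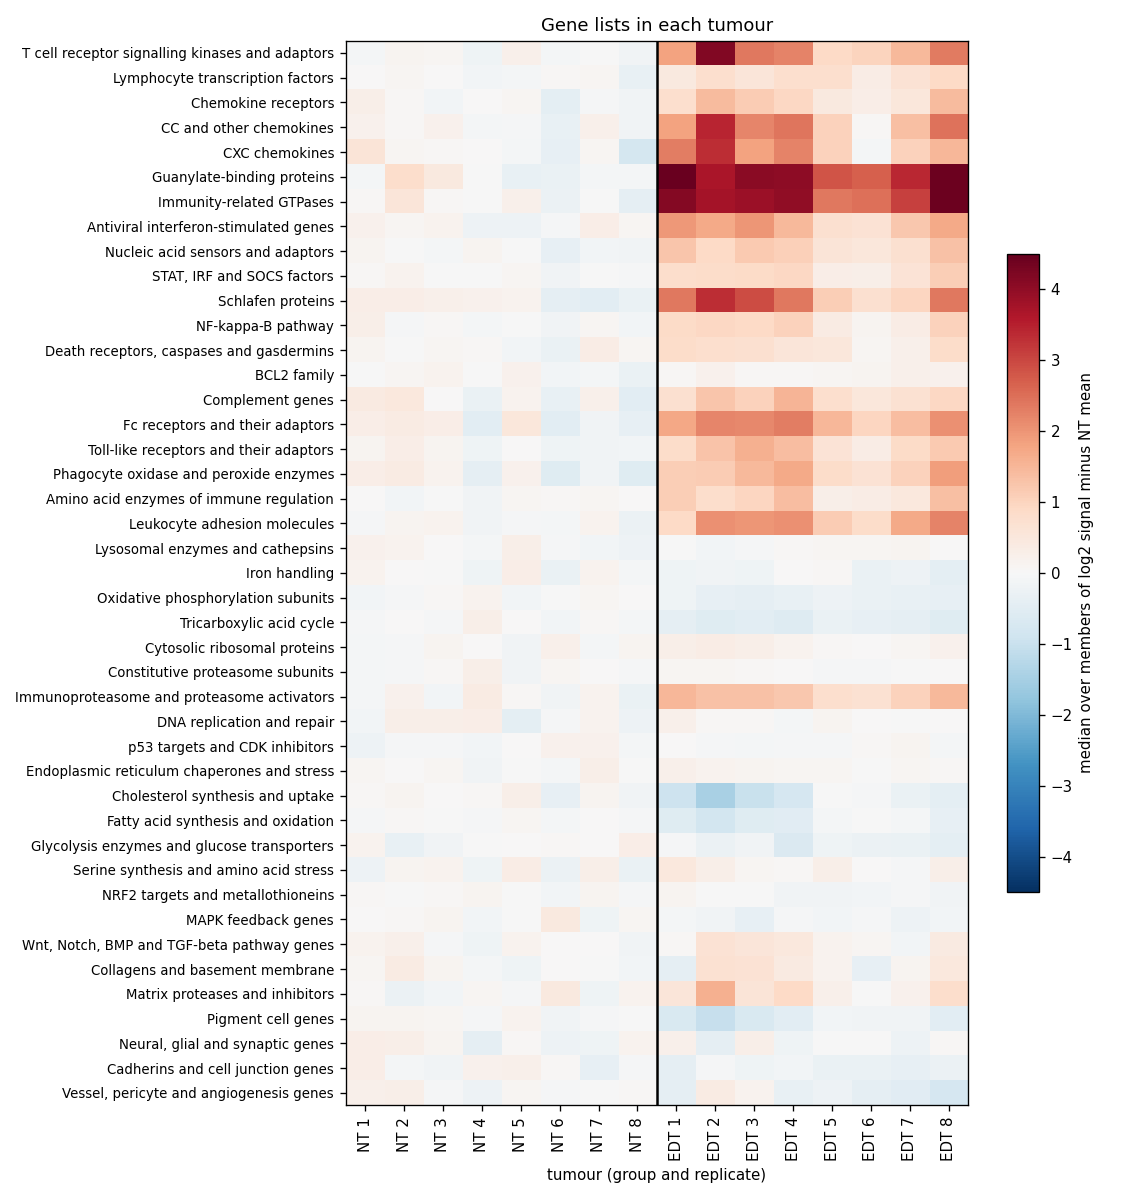
Median over the tested members of 43 gene lists of the log2 signal minus the gene's NT mean (colour, blue for lower and red for higher, with a scale bar) in each of 8 NT and 8 EDT tumours, with a line between the groups. Members that entered through EDT alone are included. The GTPase lists are high in all 8 EDT tumours, while T cell, chemokine, cholesterol and pigment lists are pale in EDT replicates 5 and 6.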

How the data were processed

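Total RNA of each tumour was measured on 1 bead array. The authors deposited the mean bead intensity per probe, which the values show to be raw, with a detection p-value per probe and array, per the file headers. In 4 of 45264 probe rows intensities and detection values were exchanged or mistyped, and these rows were left out. The authors' own log2 values were deposited as well. They kept the rank order of each array's intensities, with array medians of 4.68 to 4.86 and no direction to settle on these 1-colour arrays. The method behind them is not given in the sources used here.

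Symbols were those of GEO's platform annotation: 34871 probes had 1 symbol, 18 several and 10371 none. Intensities of the 16 arrays went through neqc (limma 3.58.1, R 4.3.3), which takes its background from the detection values, adds 16, quantile-normalizes and takes log2. Probes needed detection at p under 0.01 on 5 or more of the 8 arrays of either group (15737 probes, 13741 with 1 symbol), and a gene was represented by its brightest kept probe over the 16 arrays. The number of arrays limits the precision. Groups were compared with lmFit and eBayes, two-sided, without covariates. For genes no NT array detected, the lower bound sets each NT array to its lowest detected signal, or to the probe's own where higher. The test was checked on simulated data.

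The comparison, 43 gene lists and the cell type markers were chosen with earlier results of these data known, so counts over them are descriptions. Named genes were drawn from the 12 largest called rises and falls among genes detected on all arrays, the 6 highest lower bounds, up to 3 called members per list with the largest change, the brightest tested member per list that was not called, and the markers. Not every gene or list so chosen is given in the text. Alternatives were median centring, no background correction, the authors' log2 values, other detection filters, the mean over probes, slide as a block, slide 5 or the other 4 slides alone, the replicate number as a block and leaving out each tumour.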

Additional observations from a re-analysis of the deposited data

Results flagged for a closer look

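Each gene given by its values in the report was screened in each group for 1 tumour far from the other 7, by Dixon's test on the gap to the nearest tumour. Of 248 groups of values 12 (4.84%) held such a tumour, and chance gives about 1 in 20. In NT replicate 6 the signals of Trpm1 (8.86, others 11.36 to 12.91), Gpr143 (10.28, others 11.47 to 12.47) and Vegfb (12.22, others 12.88 to 13.25) were low. This tumour lies on slide 5. In EDT replicate 2 the signals of Trpm1 (7.06, others 9.23 to 11.09), Tyrp1 (12.71, others 13.78 to 14.63) and C2 (12.49, others 13.37 to 13.68) were low. Among the 16 tumours it had the lowest median of the pigment list and the highest of the T cell signalling list. In the latter 13 of 15 tested members entered through EDT alone. The other values were those of Acot1 in NT replicate 4 (10.21, low), Tyrp1 in NT replicate 4 (14.17, low), Psma4 in NT replicate 5 (11.08, low), Slc7a11 in NT replicate 5 (6.20, high), Psmb8 in NT replicate 8 (8.76, low) and Gpnmb in NT replicate 1 (15.14, high).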

How the results depend on the processing

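Genes called higher numbered 2287 with median centring, 619 with slide as a fixed block and 421 on slide 5 alone, against 1380. Genes called lower numbered 172, 424 and 71 in these settings and 753 with the authors' values, against 1457. At 2-fold or more 1008 rose with median centring, 360 without background correction and 421 on slide 5 (main 649), and 82, 79 and 71 fell (main 205). Slide 5 alone has 5 arrays. With slide as a fixed block NT and EDT are compared on slide 5 only, since each other slide holds 1 group. Under all other alternatives the counts stayed within 1.5 times, among them 1213 and 1241 with slide as a random block. Leaving out 1 tumour gave 1183 to 1504 higher, 1165 to 1597 lower, 599 to 708 higher by 2-fold and 170 to 263 lower by 2-fold. The replicate number as a block gave 1262 higher and 1280 lower, and 645 and 203 at 2-fold. Same-numbered tumours correlated at -0.04 to 0.17, which cannot exclude a pairing, and the titles state none. The share of genes with the same sign on slide 5 was 91.01%, and 73.82% to 91.26% in other settings, with the lowest under median centring.

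Of the 96 called genes given by their values, 31 were not called on slide 5 alone, 21 with slide as a fixed block and 6 with median centring. Arg1 changed sign on slide 5 and with slide as a fixed block (-0.19 in both). No other gene of the text changed sign with a call at stake. The causes were not tested. Signals near background limit the folds of genes that few arrays detected.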
